A study of Drosophila melanogaster with 9 samples.

Results

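The 9 genes described here are cyc, which encodes the partner of the clock activator CLOCK, the clock kinase genes dco, CkIIalpha, CkIIbeta, sgg and nmo, the ubiquitin ligase genes slmb and jet, and Cipc, which encodes an inhibitor of CLOCK. They were taken by gene symbol from a table of 13947 genes, and all 9 were found. The question was which of them vary between the libraries. The table holds nuclear RNA-seq read counts from 3 libraries of photoreceptors that express an shRNA against the histone methyltransferase gene Set2 (shSet2). The male flies carried UAS-GFP-Msp300KASH, rh1-GAL4 and UAS-siSet2, were aged for 10 days in a light:dark cycle and were collected at zeitgeber time 6 (ZT6), in hours after lights on. The driver rh1-GAL4 acts in outer photoreceptors from late pupal life, and GFP on the nuclear envelope allows their nuclei to be pulled from head homogenate with an antibody. A single shSet2 line was used in the study. RNA libraries of flies with the mCherry control shRNA were not analysed here, so no value below measures an effect of Set2, and all 3 libraries form 1 group.

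In the fly clock, CLOCK and CYCLE bind DNA together and activate period (per) and timeless (tim), whose proteins later enter the nucleus and shut CLOCK and CYCLE down. Kinases set the pace: Doubletime, the product of dco, and casein kinase 2, made of the CkIIalpha and CkIIbeta products, phosphorylate PER, and Shaggy, the product of sgg, phosphorylates TIM. Phosphorylated PER is bound by the F-box protein Slimb and degraded, and light sends TIM to degradation through cryptochrome and the F-box protein Jetlag. Photoreceptors run such a clock of their own.

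Total counts were 3657491, 3794547 and 4960498 in replicates 1, 2 and 3, and levels are given as CPM, each gene's share of a library's TMM-scaled total. A minimum of 10 counts per library left 5802 genes to test, all 9 described here among them. Pearson's r of log2(CPM + 1) across these genes was 0.983 to 0.988 between libraries, where genes are not independent replicates. No label says that the libraries came from separate groups of flies, so the spread between them may be technical. Intervals cover counting error only. All 8 outer photoreceptor markers, such as ninaE and trp, were well above the floor of 3 counts, with a summed level of 58851, 61019 and 58791 CPM in replicates 1, 2 and 3. A further 17 markers stand for hemocytes, muscle, fat body, glia and other neurons, and 12 of them reached 10 counts in all libraries. All 5 of these lists had their highest summed level in replicate 1. Fat body was the highest of the 5, at 786, 644 and 588 CPM in replicates 1, 2 and 3. Most of it came from apolpp, at 776, 618 and 543 CPM. Muscle had 48.0, 11.9 and 17.2 CPM and other neurons had 116, 84.7 and 93.6 CPM. Glia differed less, at 135, 121 and 130 CPM, and only 1 of the 3 muscle markers reached 10 counts in all libraries. All 4 inner photoreceptor markers reached 10 counts in all libraries, with a summed level of 51.2, 36.5 and 46.6 CPM. Of the muscle markers, Act88F was at 0 in every library, and of the fat body markers, Yp1 reached at most the floor. Neither value shows that muscle or fat body nuclei were absent. In bulk nuclei, fewer cells of a type and less RNA per cell cannot be told apart. Set2 had 313, 370 and 369 counts, or 84.8, 97.9 and 74.8 CPM in replicates 1, 2 and 3.

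All 9 genes were detected in every library, from jet with 41 counts to sgg with 9489. Levels are compared between libraries and not between genes, because exon lengths were not used here. The differences between libraries were small. The ratio of the highest to the lowest library was between 1.05 for jet and 1.38 for dco. The highest and lowest libraries were picked after seeing the levels. The intervals given below for these ratios do not allow for that choice. A pair of questions was asked of each gene with edgeR's goodness-of-fit test and Benjamini-Hochberg adjustment over the 5802 genes. The first was whether the 3 counts differ by more than read counting gives. The genes dco, nmo, Cipc, CkIIalpha, sgg and CkIIbeta passed this test, 6 of 9, beside 25.3% of all genes. The genes cyc, slmb and jet did not. The test calls more genes where there are more counts. The 4 members with a mean of at least 1000 counts all passed, as did 79.7% of all genes at that depth. Of the 4 members with a mean of 100 to under 1000 counts, 2 passed, beside 32.9% of genes, and jet, the 1 member below 100, lies where 10.5% passed. The second question was whether a gene varies more than genes of its level usually do between these libraries, with edgeR's trended dispersion in place of counting error alone. None of the 9 genes passed, and none had an unadjusted p under 0.05, for which the lowest was 0.0883 for dco. The background was 0.552% of genes with adjustment and 4.72% without. DESeq2, in a fit with an intercept alone, marked none of the 9 as a dispersion outlier. Set2, the targeted gene, passed the first test (adjusted p 0.00739, edgeR) but not the second (unadjusted p 0.392, edgeR).

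**Figure D1:**
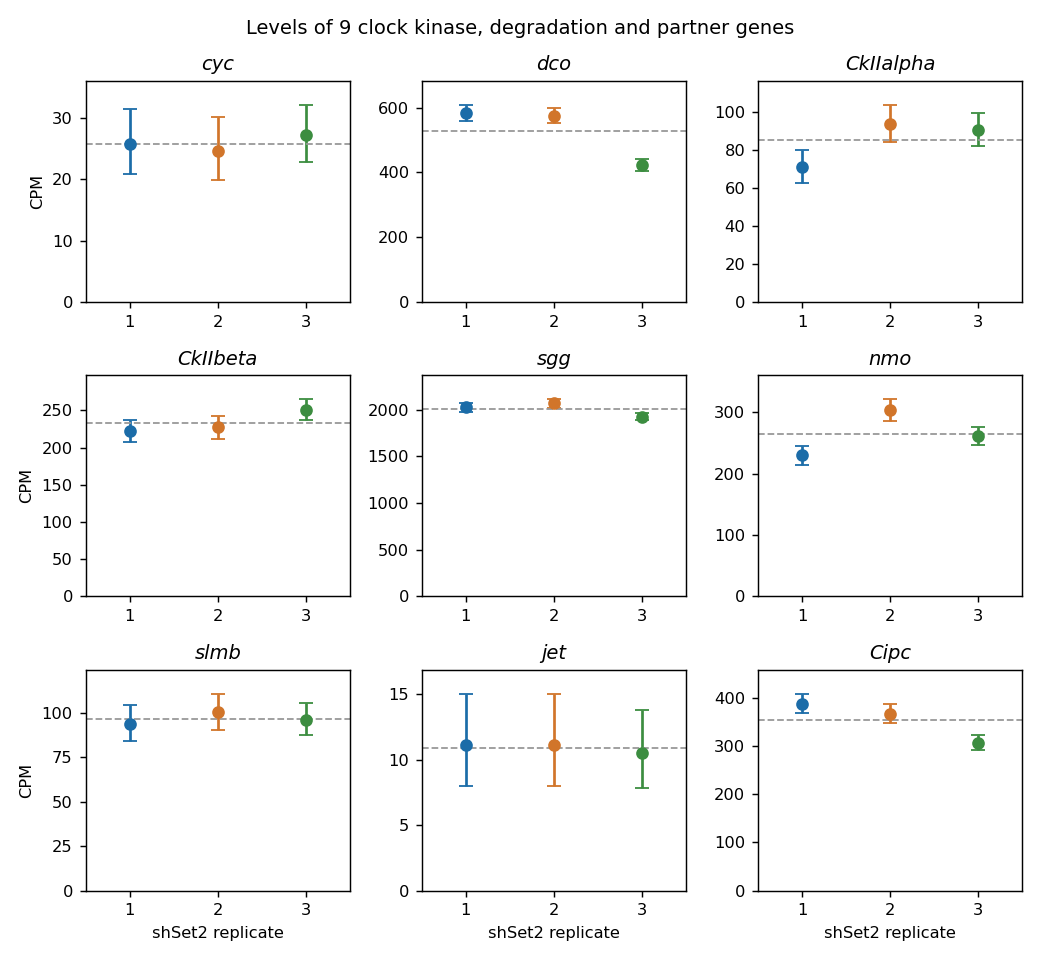
Level of each of the 9 genes in CPM (vertical axes, each from 0) in the 3 shSet2 replicates (horizontal axes). Points are single libraries, bars are exact 95% Poisson intervals of the count and dashed lines are means. The lone low point of dco in replicate 3, at 424 CPM, stands clear of the other replicates, whereas the bars of jet, cyc and slmb overlap.

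The gene cyc (FBgn0023094) lies on chromosome 3L at 19813770 to 19815938 in the RefSeq table of Release 6 plus ISO1 MT, the assembly used for all positions here. It encodes CYCLE, a bHLH-PAS protein and the counterpart of mammalian BMAL1. It had 95, 93 and 134 counts in replicates 1, 2 and 3, or 25.7, 24.6 and 27.2 CPM, with a mean of 25.8 ± 1.28 CPM (SD, n = 3). The 3 levels lay within each other's counting intervals. Its coefficient of variation (CV) of 4.95% was below the 9.65% that counting alone gives at its mean count, and the adjusted p beyond counting error (edgeR) was 0.861. The highest library was 1.10 times the lowest, with a 95% interval of 0.841 to 1.45, so a difference of up to 1.45-fold is not excluded.

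Clk, the partner of cyc, was not steady in the same libraries. It had 1308, 703 and 737 counts, or 354, 186 and 149 CPM in replicates 1, 2 and 3, and its adjusted p beyond the dispersion trend was 0.000268 (edgeR). The ratio of cyc counts to Clk counts needs no library scaling. It was 0.0726 (exact 95% interval 0.0583 to 0.0895) in replicate 1, 0.132 (0.105 to 0.164) in replicate 2 and 0.182 (0.150 to 0.219) in replicate 3. The ratio thus differed 2.50-fold between replicates 3 and 1, and the interval of replicate 1 did not overlap those of the others. The counts were not divided by gene length, so the ratio can be compared between libraries but its size cannot be read as a ratio of transcripts.

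**Figure D2:**
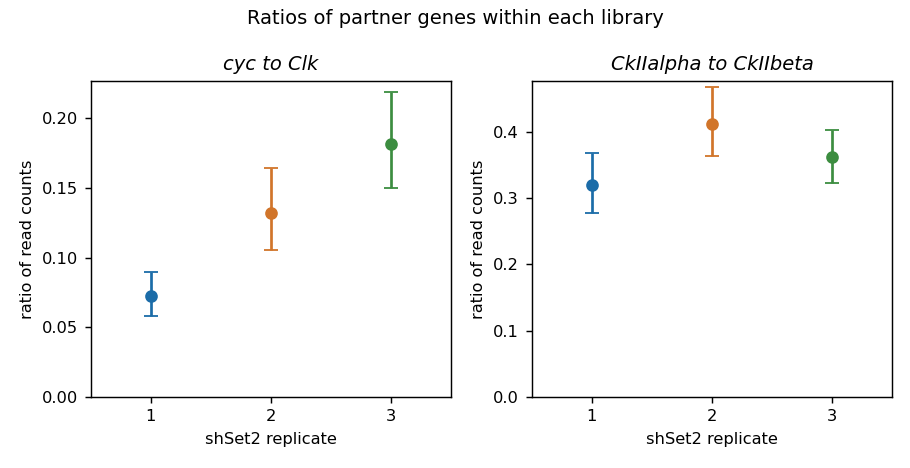
Ratio of read counts of cyc to Clk and of CkIIalpha to CkIIbeta (vertical axes, from 0) in the 3 shSet2 replicates (horizontal axes). Points are single libraries and bars are exact 95% binomial intervals. The cyc to Clk ratio is 0.0726 in replicate 1 and 0.182 in replicate 3. The ratio of the casein kinase 2 subunits runs from 0.320 in replicate 1 to 0.412 in replicate 2.

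Among the kinases, dco (FBgn0002413, chromosome 3R, 31054085 to 31061210) had the largest spread of the 9 genes. It encodes Doubletime, a casein kinase 1 whose phosphorylation of PER leads to PER degradation. It had 2156, 2175 and 2092 counts in replicates 1, 2 and 3, nearly equal numbers from libraries of unequal size, which gave 584, 575 and 424 CPM. Replicates 1 and 2 were alike and replicate 3 was low, 1.38-fold below replicate 1 (95% counting interval 1.30 to 1.46). The mean was 528 ± 90.1 CPM (SD, n = 3), a CV of 17.1% against 2.16% from counting, and the adjusted p beyond counting error was 4.41e-30 (edgeR). Its SD of log2(CPM + 1) of 0.26 was at rank 1746 of the 5802 genes, and 69.9% of genes had a smaller SD. The difference rested on replicate 3, since the adjusted p was 0.855 without it.

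The catalytic and regulatory subunits of casein kinase 2, CkIIalpha (FBgn0264492, chromosome 3L, 23097072 to 23103460) and CkIIbeta (FBgn0000259, chromosome X, 11792533 to 11801587), act in 1 complex. CkIIalpha had 262, 354 and 447 counts, or 71.0, 93.6 and 90.6 CPM in replicates 1, 2 and 3. It was low in replicate 1 and alike in the others, with a mean of 85.1 ± 12.3 CPM (SD, n = 3) and an adjusted p beyond counting error of 0.00565 (edgeR), which was 0.858 without replicate 1. CkIIbeta had 819, 859 and 1238 counts, or 222, 227 and 251 CPM. Its highest library, replicate 3, was 1.13 times its lowest, replicate 1, and its adjusted p of 0.0472 was close to the threshold. The call was lost with unscaled totals (0.0807), with the filterByExpr filter (0.0536), without replicate 1 (0.113) and without replicate 3 (0.854). Both subunits were lowest in replicate 1, as were 34.1% of all genes tested. For CkIIbeta the counting intervals of replicates 1 and 2 overlapped. Markers of other cells had their highest summed levels in replicate 1, and the part of such cells in this was not tested. The count ratio of CkIIalpha to CkIIbeta was 0.320 (0.277 to 0.368), 0.412 (0.363 to 0.467) and 0.361 (0.323 to 0.403) in replicates 1, 2 and 3. The exact 95% intervals of replicates 1 and 2 overlapped only narrowly. Overlap does not show that the ratios were equal, which was not tested.

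Shaggy, the fly GSK3 kinase, is encoded by sgg (FBgn0003371, chromosome X, 2633952 to 2679553). With 7471, 7807 and 9489 counts it was the most deeply counted of the 9 genes, at 2024, 2065 and 1923 CPM in replicates 1, 2 and 3. The libraries differed by 1.07-fold at most (95% counting interval 1.04 to 1.11). At this depth even so small a difference passed the first test (adjusted p 6.64e-05, edgeR), but the call was lost without replicate 3 (0.528). Its CV of 3.66% was below the 10.7% biological CV that the trend gives for genes of its level, and 7.26% of genes had a smaller SD of log2(CPM + 1).

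The gene nmo (FBgn0011817, chromosome 3L, 7979046 to 8054147) encodes Nemo, a MAP kinase-like kinase that phosphorylates PER. It had 847, 1146 and 1287 counts, or 229, 303 and 261 CPM in replicates 1, 2 and 3. Here the 3 libraries were spread out, with replicate 2 at the top, replicate 1 at the bottom and no overlap of the counting interval of replicate 2 with the others. The highest was 1.32 times the lowest (95% counting interval 1.21 to 1.45), and the adjusted p beyond counting error was 6.50e-08 (edgeR). Of the 6 genes beyond counting error, nmo alone stayed below the threshold with each replicate left out in turn, with adjusted p from 3.76e-08 to 0.0129.

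The genes of the ubiquitin step did not differ between libraries beyond counting error. Slimb, encoded by slmb (FBgn0283468, chromosome 3R, 21119252 to 21127485), binds phosphorylated PER for its destruction. It had 347, 379 and 475 counts, or 94.0, 100 and 96.3 CPM in replicates 1, 2 and 3. The CV of 3.27% was below that from counting alone, the adjusted p was 0.807 (edgeR), and the highest library was 1.07 times the lowest (0.919 to 1.24). Jetlag, encoded by jet (FBgn0031652, chromosome 2L, 4948206 to 4949784), takes TIM to degradation after light. It had 41, 42 and 52 counts, or 11.1, 11.1 and 10.5 CPM. Its ratio of 1.05 had the widest interval of the 9 genes, 0.685 to 1.61, so a difference of up to 1.61-fold is not excluded. The end of the neighbouring gene betaggt-I overlaps 119 bases of jet, and how reads there were counted is not given in the sources used here. The gene betaggt-I had 19, 30 and 44 counts in replicates 1, 2 and 3.

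Cipc (FBgn0051324, chromosome 3R, 26106868 to 26130674) is named for a mammalian repressor of CLOCK and BMAL1, and its fly product inhibits CLOCK and CYCLE. It had 1431, 1387 and 1510 counts, or 388, 367 and 306 CPM in replicates 1, 2 and 3. Replicates 1 and 2 overlapped in their counting intervals and replicate 3 was low, 1.27-fold below replicate 1 (95% counting interval 1.18 to 1.36). The mean was 354 ± 42.5 CPM (SD, n = 3) and the adjusted p beyond counting error was 1.84e-09 (edgeR), which was 0.442 without replicate 3. Cipc was thus low in the same library as dco. The gene CG14556 lies wholly within the span of Cipc and had 230, 243 and 219 counts, or 62.3, 64.3 and 44.4 CPM, also lowest in replicate 3. Reads of the 2 genes cannot be told apart where they overlap, since the counting rule and strand setting are not given in the sources used here. The ratio of Cipc to CG14556 counts was 6.22, 5.71 and 6.89 in replicates 1, 2 and 3, with overlapping exact 95% intervals.

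**Figure D3:**
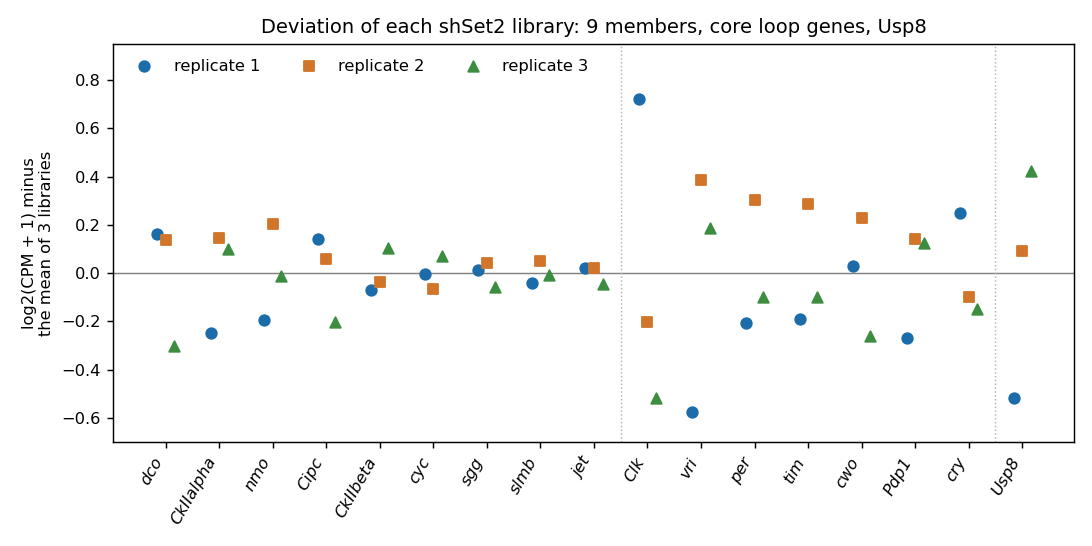
Deviation of each shSet2 library from the mean of the 3 libraries on the log2(CPM + 1) scale (vertical axis) for the 9 genes, the 7 core loop genes and Usp8 (horizontal axis, by falling SD within each block). Circles, squares and triangles are replicates 1, 2 and 3. The deviations of the 9 genes lie between -0.30 and 0.21, whereas Clk reaches 0.72 and vri -0.57 in replicate 1.

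By library, 4 of the 9 genes (CkIIalpha, CkIIbeta, nmo and slmb) were lowest in replicate 1, 1 (cyc) in replicate 2 and 4 (dco, sgg, jet and Cipc) in replicate 3. Of all genes tested, 34.1%, 28.9% and 37.0% were lowest in replicates 1, 2 and 3. No library was the lowest for most of the 9 genes, and cyc, slmb and jet did not differ between libraries beyond counting error. A shared direction was not tested. The median SD of log2(CPM + 1) of the 9 genes was 0.09, beside 0.18 over all 5802 genes, whose median count is lower. For the 7 core loop genes Clk, vri, per, tim, cwo, Pdp1 and cry the SD was 0.22 to 0.65 with a median of 0.25. Of these, 6 of 7, all but cry, differed beyond counting error, beside 25.3% of all genes and 79.7% of genes with a mean of at least 1000 counts, and the median count of the 7 was 2977. Clk and vri differed beyond the trend, beside 0.552% of all genes. The largest SD among the 9 genes was 0.26, that of dco, which was 0.015 without replicate 3. No test of the difference between the 2 lists was made.

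**Figure D4:**
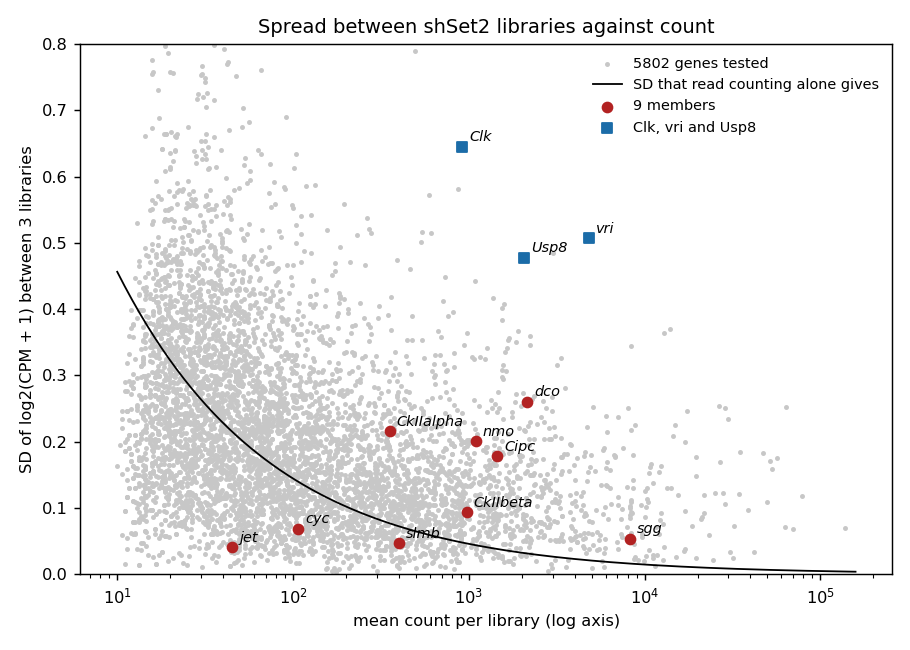
SD of log2(CPM + 1) between the 3 shSet2 libraries (vertical axis) against the mean count per library (horizontal log axis) for the 5802 genes tested, of which 41 lie above the top of the axis. The line is the SD that read counting alone gives. The genes jet, cyc and slmb lie below the line, dco is the highest of the 9 at 0.26, and Clk, vri and Usp8 lie well above the 9 genes.

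A wider list of 22 clock regulators was drawn from phosphatases, other kinases, ubiquitin ligase and COP9 signalosome subunits, a deubiquitinase, and factors of translation and chromatin that act on the clock. All 22 were tested. Of these, 11 differed between libraries beyond counting error, beside the 25.3% of all genes. The median count of the list was 757, beside 76.7 over all genes tested. The share over all genes was 32.9% at a mean of 100 to under 1000 counts and 79.7% at 1000 or more. Beyond the trend there were 0 of the list, with 1 at an unadjusted p under 0.05 (edgeR) and 1, Usp8, marked by DESeq2. The median SD was 0.12. Of the list, 7 genes were lowest in replicate 1, 5 in replicate 2 and 10 in replicate 3.

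The largest SD in the list, 0.48, was that of Usp8, a deubiquitinase that removes ubiquitin from CLOCK in flies. It had 1198, 1876 and 3079 counts, or 325, 496 and 624 CPM in replicates 1, 2 and 3, a 1.92-fold range. All 3 libraries stood apart. Replicate 1 had the lowest Usp8 level and the highest Clk level, and a link between these genes was not tested. The adjusted p of Usp8 beyond the trend was 0.0576 (edgeR), just over the threshold. It ranged from 0.0405 with TMM factors from all genes, an alternative chosen after seeing the data, to 0.999 without replicate 1, and was 0.0499 with a minimum of 1 count. DESeq2 marked Usp8 as a dispersion outlier, as it did Clk and vri. The next in SD was nej, which encodes the histone acetyltransferase CBP, a coactivator of CLOCK. It had 549, 557 and 427 CPM in replicates 1, 2 and 3, low in replicate 3 as dco was, with an adjusted p of 3.63e-20 beyond counting error and 1.00 beyond the trend (edgeR). The steadiest were Atx2, an RNA-binding factor for PER translation, at 380, 401 and 379 CPM, and the ubiquitin ligase scaffold gene Cul3, at 135, 147 and 149 CPM in replicates 1, 2 and 3.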

How the data were processed

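Nuclear RNA-seq counts of 3 shSet2 libraries, each from 10 ng of RNA, were analysed. The authors deposited whole-number read counts for 13947 genes by FlyBase identifier, without normalization, beside 1 blank row that was left out. The table holds 0 columns of other samples. The submitters' processing notes list Trimmomatic, Bowtie2, STAR, SAMtools, deepTools and DESeq2 and the builds dm6 and BDGP6, without roles. The counting tool and strand setting are not given in the sources used here. ATAC-seq libraries were not analysed here.

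Symbols were matched for 13884 identifiers. Genes with at least 10 counts in every library were tested with edgeR 4.0.16 in R 4.3.3. TMM factors were taken from those genes. An intercept-only model was fitted at dispersion 0 (counting error) or at the trended dispersion, and its deviance was tested by edgeR's gof with Benjamini-Hochberg adjustment at 0.05. The trend comes from the same libraries. DESeq2 1.42.0 gave dispersion outliers and alternative size factors. Logs used a pseudocount of 1. Intervals are 95% exact Poisson or binomial intervals, with library scaling taken as known. The steps were tested on simulated data. Positions came from the RefSeq table by symbol.

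The 9 genes and all lists were chosen with earlier results of these data known. The text names the 9 genes, Set2, core loop genes, overlapping genes, the regulators beyond the trend (there being none, the extremes in SD), and the 5 genes closest in profile to the member with the largest SD. Alternatives were other scalings, filters, dispersions and pseudocounts, and each replicate left out.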

Additional observations from a re-analysis of the deposited data

How the results depend on the processing

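No paired analysis was possible because the counts used here come from 1 group of libraries. None of the 9 genes was called beyond the dispersion trend under any of the alternatives run. The number of genes beyond the trend was 32, and 53 with a minimum of 1 count in every library, which tests more genes. Leaving out each replicate gave 12 to 19. The number beyond counting error was 1466, against 550 to 1236 when each replicate was left out, with the lowest value without replicate 3 and 868 without replicate 1. Of the 9 genes, 6 were beyond counting error, or from 2 to 6 on leaving out each replicate. The 2 that were called without replicate 3 were CkIIalpha and nmo. Fewer libraries give fewer calls by construction, and other causes were not tested. The other scalings and filters gave 5 or 6. None of the 54 alternatives moved a mean CPM of the 9 genes by more than 1 SD, although leaving out 1 of 3 values hardly can. The SD of log2(CPM + 1) depended on single libraries, and 9 of its 63 alternatives moved it by more than 1 SD of its 3 leave-one-out values. Without replicate 3 it was 0.015 for dco (0.26 with all 3), 0.025 for CkIIbeta (0.09), 0.021 for sgg (0.05) and 0.056 for Cipc (0.18), and higher for nmo at 0.28 (0.20) and slmb at 0.065 (0.05). Without replicate 1 it was 0.031 for CkIIalpha (0.22) and 0.10 for cyc (0.07). The SD of jet also moved, without replicate 3. The ranks and medians of SD given above rest on all 3 libraries. The ratios of 2 genes stayed within 1 SD. Depth limits jet and cyc most.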

Other observations

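The genes whose profiles over the 3 libraries were closest to that of dco, by Euclidean distance between centred log2(CPM + 1) values, were betaTub56D, ND-15, pug, Hex-A and CG14186, at distances of 0.0097 to 0.012. In replicates 1, 2 and 3, betaTub56D, which encodes a beta-tubulin, had 38.2, 37.8 and 27.4 CPM. Hex-A, which encodes a hexokinase, had 32.0, 31.2 and 22.7 CPM. CG14186 was the most deeply counted of the 5, at 314, 307 and 229 CPM. ND-15 had 16, 16 and 14 counts and pug had 58, 59 and 55, so counting error exceeds these distances. Each of the 5 was low in replicate 3, as dco was, which follows from how they were picked. A total of 165 of the 5802 genes tested lay within a distance of 0.1 of dco, and with 3 libraries such a likeness describes these libraries alone.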
